A study of Rattus norvegicus with 8 samples.

Results

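Leukocyte marker and chemokine genes are a set of 43 genes chosen by name, of which 39 were matched to a probe among the 41012 gene probes of the array. The set holds 17 genes of macrophages and monocytes, 3 of neutrophils, 2 carried by leukocytes in general, 14 of lymphocytes and 7 of the chemokine system. Itgax, Mpo, Ms4a1 and Cd79a had no probe matched by accession, and their mRNA was not analysed here. The animals were male rats of the inbred strain F344/NSlc at 10 weeks of age, and the right kidney was taken. The labels name 4 rats after a sham operation and 4 nephrectomized rats, in which the right kidney was the one left after unilateral nephrectomy. The series text gives 2 days from operation to sampling, but the source label gives 1 day for the sham samples and 2 days for the nephrectomized ones. The groups may therefore differ by a day as well as by the operation, and these cannot be told apart. No other treatment or allele is labelled. Each rat had its own 1-colour array, and each of 2 slides held 2 sham and 2 nephrectomized rats. Between 54.8% (sham rat 1) and 65.5% (nephrectomized rat 4) of probes were well above background on an array. All 13 markers of kidney tubule segments that were looked up, among them Lrp2, Umod and Aqp2, were well above background on all 8 arrays.

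The kidney holds a network of resident macrophages and dendritic cells, with few lymphocytes and neutrophils in the healthy state. After injury, tubular and endothelial cells release chemokines, small secreted proteins that bind receptors on leukocytes and draw them in. Ccl2 recruits monocytes through Ccr2, Cxcl1 recruits neutrophils through Cxcr2, and Cx3cl1, made by the tissue, holds cells that carry Cx3cr1. The loss of the other kidney makes the remaining one grow without direct damage to it. The comparison addresses whether mRNA of these cells and signals differs in that kidney. RNA came from bulk kidney, so that fewer cells of a type and less RNA per cell cannot be told apart.

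After nephrectomy few leukocyte and chemokine mRNAs passed the test for a difference from sham. Of the 32 members that could be tested, 0 were called higher and 2 were called lower: Mrc1, the mannose receptor of macrophages, and Fcrla, an Fc receptor-like protein of B cells (limma, Benjamini-Hochberg adjusted p of 0.05 over all 19865 genes tested). Of all genes tested, 2.57% were called higher and 1.02% lower, or 3.59% in either direction. At an unadjusted p of 0.05, 4 members passed, all lower, against 17.7% of all genes in either direction. S100a8 and S100a9, the subunits of calprotectin, had the lowest values beside Fcrla and were called when slide was taken into account. The median log2 difference, nephrectomized minus sham, was -0.05 over the 32 members and -0.00041 over all genes.

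The 95% intervals give the range of differences compatible with these 8 arrays. For 23 of the 32 members the interval lay within 1.5-fold in either direction, against 82.4% of all genes tested. The members whose interval reached further were Adgre1, Mrc1, S100a8, S100a9, Cd3g, Fcrla, Ccl2, Cxcl1 and Cx3cr1. Missing the threshold does not show that a gene was equal in the groups, least of all for Cd3g, Ccl2, Cxcl1 and Cx3cr1.

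**Figure D1:**
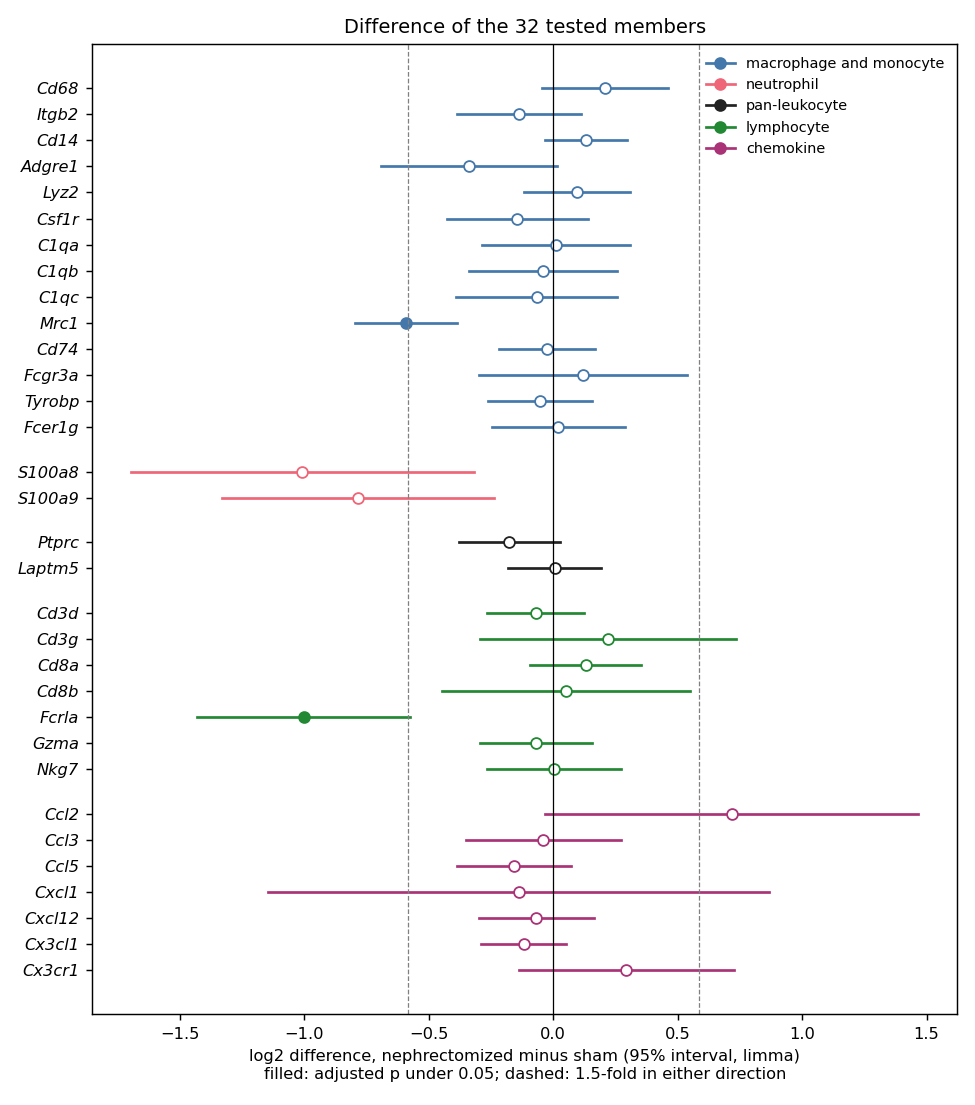
Log2 difference (nephrectomized minus sham, horizontal axis) with its 95% interval from limma for each of the 32 tested members, in order of class, n = 4 rats per group. Filled points mark Mrc1 and Fcrla, which passed an adjusted p of 0.05, and dashed lines mark 1.5-fold in either direction; S100a8 and S100a9 also lie left of the other genes, and the intervals of Ccl2 and Cxcl1 are wide.

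Promoter sequence is shown for 3 of the genes with the lowest differences, since PU.1, the factor that directs myeloid and B cell gene expression, binds a purine-rich core that is common in leukocyte promoters. The letters searched were GAGGAA on both strands, and capitals mark each match (TTCCTC where it lies on the other strand). The windows are the 250 bases before the RefSeq start of each gene in build GRCr8, written 5′ to 3′ on the gene's strand. Mrc1 lies at chr17:82157475-82157724 (+), Fcrla at chr13:85702827-85703076 (-) and S100a9 at chr2:178490623-178490872 (-).
Mrc1: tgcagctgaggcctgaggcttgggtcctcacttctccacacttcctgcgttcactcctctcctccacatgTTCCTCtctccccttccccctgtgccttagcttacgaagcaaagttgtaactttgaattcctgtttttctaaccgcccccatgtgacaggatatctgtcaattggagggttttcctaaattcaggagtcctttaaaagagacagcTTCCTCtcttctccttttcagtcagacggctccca
Fcrla: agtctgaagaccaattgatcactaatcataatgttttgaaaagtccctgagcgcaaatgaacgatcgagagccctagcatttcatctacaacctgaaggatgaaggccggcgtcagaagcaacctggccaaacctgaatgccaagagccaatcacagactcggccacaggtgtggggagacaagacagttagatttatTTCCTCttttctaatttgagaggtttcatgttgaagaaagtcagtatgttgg
S100a9: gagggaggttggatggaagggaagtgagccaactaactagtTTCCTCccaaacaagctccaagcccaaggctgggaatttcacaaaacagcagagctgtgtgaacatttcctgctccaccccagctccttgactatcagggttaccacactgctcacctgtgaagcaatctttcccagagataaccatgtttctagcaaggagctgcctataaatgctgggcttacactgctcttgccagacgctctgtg
The Mrc1 window held 2 matches and the Fcrla and S100a9 windows 1 each. Among the 31 members with a promoter in the RefSeq table, 19 (61.3%) held a match, as did 23.3% of 33469 promoters of the same length. The 31 include Itgax, Mpo and Cd79a, which had no matched probe. Members were counted with 1 promoter per gene, which was not required of the 33469 promoters. Members that were not called, such as C1qb and Csf1r with 2 matches each, held a match too. A match describes the letters of the window and is no evidence of binding.

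A gene's probe had to be well above background in every rat of at least 1 group to be tested, and 32 members met this. Of these, 29 were well above background in all 8 rats. Cd8a, Cxcl1 and Cx3cr1 passed through the nephrectomized rats alone, since their probes missed the mark in sham rat 1, the array with the fewest probes above background. The 7 matched members that could not be tested were Itgam, Cd163, Cd3e, Cd4, Cd2, Lck and Cd79b. Itgam, Cd163, Cd4, Cd2 and Cd79b were above background in no rat by any probe. Cd3e was above it in 1 nephrectomized rat, and Lck in 1 sham and 2 nephrectomized rats. Without the filter, none of these 7 was called (limma, lowest adjusted p = 0.82), with log2 differences of -0.26 to 0.29. Markers of 1 cell type could differ in detection: Cd3d and Cd3g of the T cell receptor complex were seen in all rats, and Cd3e, their partner, was not.

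**Figure D2:**
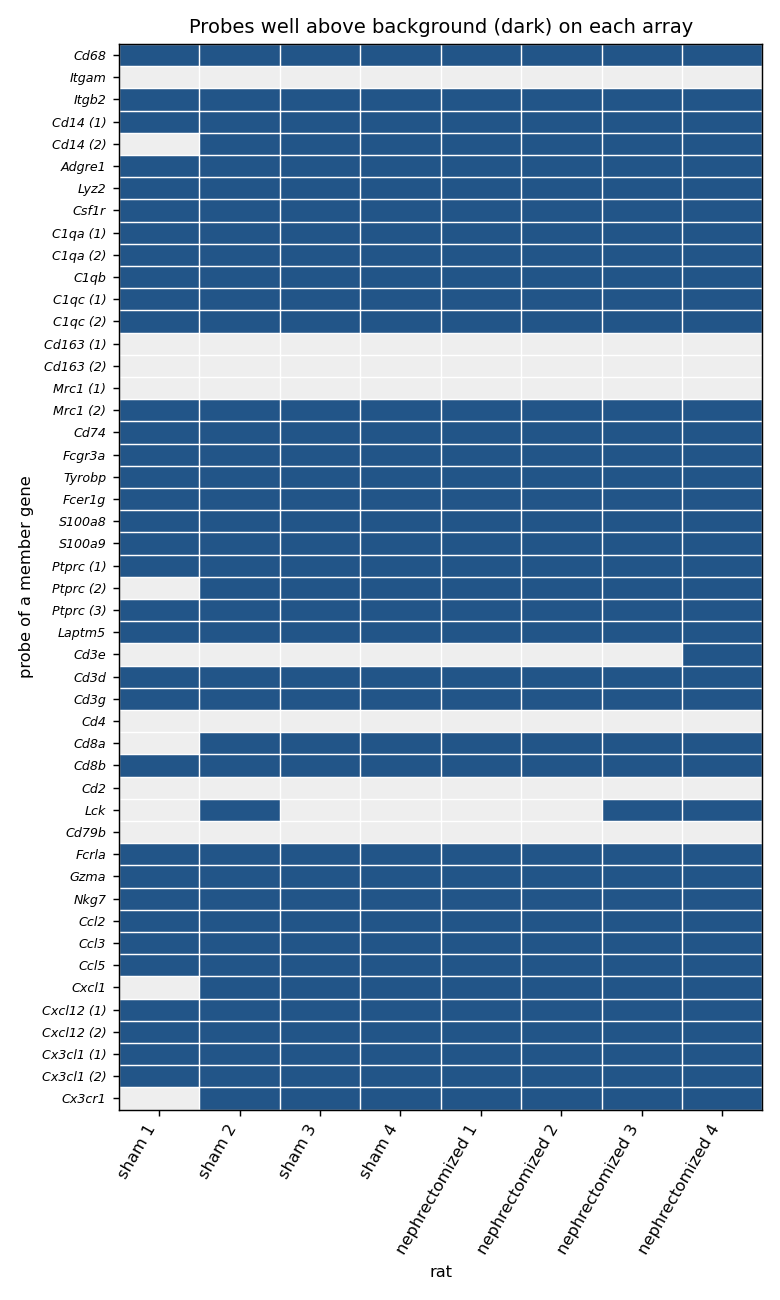
Detection of each probe of the 39 matched members (rows; numbers in brackets tell apart the probes of 1 gene) in each of the 8 rats (columns), with dark cells for probes well above background. Most rows are dark throughout, the rows of Itgam, Cd163, Cd4, Cd2 and Cd79b are empty, and sham rat 1 lacks several probes that the other rats show.

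Among macrophage and monocyte genes, Mrc1 alone was called. Of the 14 tested, 1 was called lower (Mrc1) and 0 higher, 6 had positive and 8 negative log2 differences, and the median was -0.03. All values are log2 intensities relative to the array's 75th percentile, so that they compare rats for 1 gene but not genes with each other. Mrc1, a lectin receptor by which tissue macrophages take up glycoproteins, was -1.81, -1.69, -1.59 and -1.82 in sham rats 1 to 4. In nephrectomized rats 1 to 4 it was -2.13, -2.48, -2.37 and -2.30. Every nephrectomized rat lay below every sham rat, as was the case downward for 5.09% of all genes (7.59% upward, where 0 members were apart). The level was 0.663 of sham (95% interval 0.575 to 0.764, n = 4 rats per group, limma adjusted p = 0.00988). The log2 difference was -0.56 on slide 1 and -0.63 on slide 2, and the adjusted p with slide as a block in limma was 0.0172. Background correction with normexp brought the value to -0.35 (limma adjusted p = 0.0298), and with dim probes kept in, the call was lost (adjusted p = 0.0522). The other Mrc1 probe was above background in no rat.

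Adgre1, a surface receptor of mature tissue macrophages, had the next lowest value of the class but did not pass. Its values were -0.56, -0.74, -0.10 and -0.53 in sham rats and -0.77, -1.04, -0.54 and -0.93 in nephrectomized rats. The groups overlapped across slides and not within either slide (log2 difference -0.26 on slide 1 and -0.42 on slide 2). The pooled difference was -0.34 (95% interval -0.69 to 0.01, limma adjusted p = 0.303), or -0.21 without sham rat 3. Cd68, a lysosomal glycoprotein of phagocytes, lay on the other side. It was 1.63, 1.19, 1.40 and 1.35 in sham rats and 1.81, 1.49, 1.62 and 1.49 in nephrectomized rats, with a difference of 0.21 (95% interval -0.04 to 0.46, limma adjusted p = 0.381). These groups overlapped because sham rat 1 lay within the nephrectomized range.

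The other macrophage genes are described by their role. The complement subunits C1qa, C1qb and C1qc, which macrophages secrete and which form 1 protein complex, differed by 0.01, -0.04 and -0.07. Their 95% intervals reached from -0.39 to 0.31 at most. In all 3, sham rat 1 and nephrectomized rat 1 were the highest of their groups. The signalling adaptors Tyrobp and Fcer1g, which pair with activating receptors, differed by -0.05 and 0.02, and Fcgr3a, an Fc receptor that uses such an adaptor, by 0.12. The lipopolysaccharide co-receptor Cd14 differed by 0.13, the lysozyme gene Lyz2 by 0.09, and the receptor of colony-stimulating factor 1, Csf1r, by -0.15. Itgb2, the beta chain of leukocyte integrins, differed by -0.14, and Cd74, the invariant chain of class II antigen presentation, by -0.03. By limma, none of these 11 genes came below an adjusted p of 0.394, and the highest was 0.98. Where a member of this class had more than 1 probe above background (Cd14, C1qa and C1qc), the differences of the probes spanned 0.13 to 0.32, -0.05 to 0.01 and -0.07 to -0.0070. Lyz2 and Fcgr3a have close relatives in the genome whose mRNA their probes may also bind.

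A further list of 55 macrophage and dendritic cell genes gives the surroundings of these values. Of its 38 tested genes, 1 was called lower and 0 higher, with a median log2 difference of 0.08. The called gene was Clec10a, another lectin of tissue macrophages. It was 0.16, -0.05, 0.13 and -0.10 in sham rats and -0.44, -0.39, -0.50 and -0.20 in nephrectomized rats. The groups did not overlap, and the difference was -0.42 (SE 0.09, limma adjusted p = 0.0432). The call of Clec10a was lost with slide as a block (limma adjusted p = 0.0588) and, of the 8 fits that each left out 1 rat, it was kept only without nephrectomized rat 4. With that block another gene of the list was called lower, the inhibitory Fc receptor Fcgr2b (-0.42, limma adjusted p = 0.0391, and 0.0566 without the block). At an unadjusted limma p of 0.05, 7 of the 38 genes passed, on both sides of 0, against 17.7% of all genes. Beside Clec10a and Fcgr2b, Alox5ap was lower (-0.39). Irf5 (0.32), Coro1a (0.30), Aif1 (0.27) and Apobec1 (0.20) were higher. The other Apobec1 probe, also above background in all rats, gave -0.04. The summed signal of the 38 genes was 6.81 to 7.04 (log2) in sham and 6.99 to 7.06 in nephrectomized rats. Such sums, here and for the lists below, weigh the brightest probes most (here Cyba, mean 5.53 in sham rats) and do not describe each gene of a list. Of 6 tested genes of class II antigen presentation, 0 were called by limma and 0 had an unadjusted p under 0.05. Their differences ran from -0.07 for RT1-DMa to 0.17 for Ciita, their transcriptional activator, with RT1-Bb at 0.03.

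Both neutrophil genes tested lay lower in every nephrectomized rat than in the sham rats of the same slide, and both were called lower with slide as a block. S100a8, a calcium-binding protein abundant in neutrophils and monocytes, was -1.50, -1.09, -2.22 and -1.92 in sham rats 1 to 4. It was -2.02, -2.61, -2.92 and -3.20 in nephrectomized rats 1 to 4. Rats 1 and 2 of each group, which were on slide 1, lay above rats 3 and 4 of that group on slide 2, so that the groups overlapped when slides were pooled. The level was 0.497 of sham (95% interval 0.309 to 0.801) and did not pass (limma adjusted p = 0.121). The log2 difference was -1.03 on slide 1 and -0.99 on slide 2, and with slide as a block in limma the adjusted p was 0.0172.

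Its partner S100a9 gave the same picture. The values were -0.60, -0.55, -1.24 and -1.22 in sham rats and -1.20, -1.56, -1.79 and -2.19 in nephrectomized rats. Only sham rats 3 and 4 reached down to nephrectomized rat 1, which was on the other slide. The level was 0.581 of sham (95% interval 0.398 to 0.849, limma adjusted p = 0.128), with -0.80 on slide 1 and -0.76 on slide 2, and limma adjusted p = 0.0106 with slide as a block. With that block 4 of the 32 members were called lower and 0 higher, against 1.2% and 2.84% of all genes (4.04% in either direction). With normexp the log2 differences were -0.56 for both genes (adjusted p = 0.147 for S100a8 and 0.13 for S100a9, by limma).

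Other neutrophil genes were scarce in these kidneys. Of 20 matched genes of a further list, 4 could be tested, of which 0 were called and 2 had an unadjusted p under 0.05, and 9 were above background in no rat, among them Elane, Csf3r, Cxcr2 and Mmp8. The median difference of the 4 tested genes was 0.19. The other 7 were above background in some rats. The granule proteins Ngp and Camp were so in 3 and 1 sham rats and in 0 nephrectomized rats (log2 differences -0.90 and -0.52). Csf3 was so in 1 sham and 2 nephrectomized rats (1.06), Fpr1 in 0 and 1 (0.92), and Lcn2 in 1 and 1 (0.47). Mmp9 and Padi4 were so in 3 rats of each group (0.38 and -0.05). These genes thus lay on both sides of 0. Fcnb, a ficolin of granulocytes and monocytes, went the other way: its lowest nephrectomized value (-2.86) lay just above its highest sham value (-2.88), and its difference was 0.76 (limma adjusted p = 0.248), or 0.42 without nephrectomized rat 1. Il1b, which monocytes and neutrophils produce, had a difference of 0.44 and did not pass (limma adjusted p = 0.282). Np4, a defensin, differed by -0.13 (limma adjusted p = 0.296).

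Red cell and platelet genes were read beside S100a8 and S100a9. All 8 tested genes of that list were above background in all rats. By limma 0 were called, 0 had an unadjusted p under 0.05, and the median difference was -0.25. Ahsp, the haemoglobin chaperone, differed by -0.72 (adjusted p = 0.483), or by -0.18 without sham rat 4, and the red cell anion exchanger Slc4a1 by -0.16 (adjusted p = 0.598). Their summed signal was 5.65 to 7.48 (log2) in sham and 5.95 to 6.57 in nephrectomized rats. Alas2, the haem synthesis enzyme of red cell precursors, was -0.19, -0.52, -1.77 and 1.61 in sham rats and -0.69, -0.96, -0.26 and -1.44 in nephrectomized rats. Sham rat 4 was the highest and sham rat 3 the lowest, and the difference of -0.62 (limma adjusted p = 0.665) was -0.0090 without sham rat 4. The part of blood cell content in the S100a8 and S100a9 values was not tested.

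**Figure D3:**
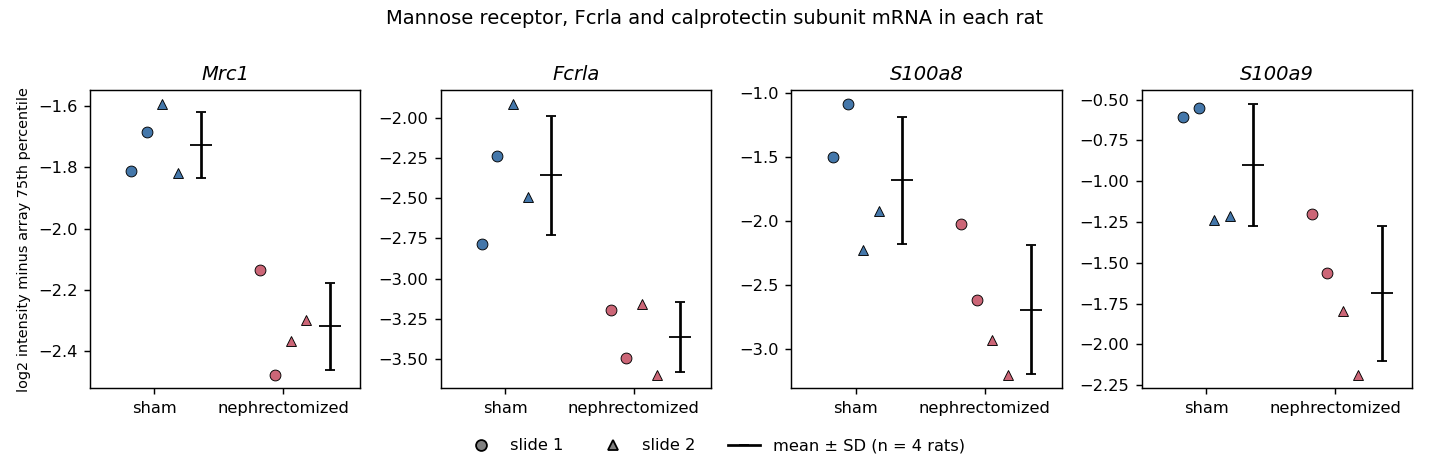
Level on the vertical axis (log2 intensity less the 75th percentile of the array) of Mrc1, Fcrla, S100a8 and S100a9 in each of 4 sham and 4 nephrectomized rats, with circles for slide 1, triangles for slide 2 and bars for mean ± SD. The groups are apart in Mrc1 and Fcrla; in S100a8 and S100a9 they are apart within each slide, and slide 1 lies above slide 2 in both groups.

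The genes common to all leukocytes gave small differences. Ptprc, the CD45 phosphatase, was -2.32, -2.05, -2.01 and -2.04 in sham rats and -2.37, -2.14, -2.35 and -2.26 in nephrectomized rats. Sham rat 1 was the only sham rat within the nephrectomized range. The difference was -0.18 (95% interval -0.38 to 0.03, limma adjusted p = 0.35), and its 3 probes ranged from -0.18 to 0.02. Laptm5, a lysosomal membrane protein of blood cells, was between 3.09 and 3.40 in sham rats and between 3.16 and 3.34 in nephrectomized rats. It differed by 0.01 (95% interval -0.18 to 0.19, limma adjusted p = 0.983).

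Of the lymphocyte genes, Fcrla alone was called. Of 7 tested, 1 was called lower and 0 higher, and the median difference was 0.0011. Fcrla was -2.78, -2.24, -1.91 and -2.49 in sham rats and -3.19, -3.49, -3.16 and -3.60 in nephrectomized rats. All nephrectomized rats lay below all sham rats, with the smallest gap to sham rat 1. The level was 0.499 of sham (95% interval 0.371 to 0.67, limma adjusted p = 0.0254, and 0.0352 with slide as a block). The difference was -0.83 on slide 1 and -1.17 on slide 2. Leaving out sham rat 2 or 4 or nephrectomized rat 2 or 4 ended the call (limma adjusted p between 0.0545 and 0.083). Keeping dim probes in did so too (adjusted p = 0.0972). With normexp the log2 difference was -0.52 (limma adjusted p = 0.0244).

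Other B cell genes differed in detection. Cd79b, a subunit of the B cell receptor, was above background in no rat, as were Blk and Cr2. Cd22 was above it in 1 sham and 1 nephrectomized rat. The B cell genes that could be tested were not called and lay on both sides of 0. Fcer2, the low-affinity IgE receptor, differed by -0.30 (limma adjusted p = 0.288) and the membrane protein Cd37 by -0.01 (adjusted p = 0.971). The B cell coactivator Pou2af1 differed by 0.19 (limma adjusted p = 0.296), the adaptor Blnk by 0.10 (adjusted p = 0.635) and the kinase Btk by 0.33 (adjusted p = 0.505). Btk was above background in 1 sham and 4 nephrectomized rats, and the other tested ones in all rats. Btk thus passed the filter only through the group where it was high, and its sham values lie near background. Fcer2 and Cd37 against Pou2af1 and Blnk lay on both sides of 0 without it. The median difference of the 25 tested genes of the further lymphocyte list was -0.01, and their summed signal was 3.22 to 3.51 (log2) in sham and 3.32 to 3.41 in nephrectomized rats. The part of these cells in the Fcrla value was not tested.

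T cell and cytotoxic cell genes did not pass. Cd3d, a chain of the T cell receptor complex, differed by -0.07 (95% interval -0.27 to 0.12, limma adjusted p = 0.732). Cd3g, another chain of it, was -1.94, -2.55, -1.38 and -1.69 in sham rats and -1.49, -1.85, -1.76 and -1.58 in nephrectomized rats. Sham rats spread more widely (SD 0.50, n = 4) than nephrectomized rats (SD 0.16, n = 4), and the difference of 0.22 changed sign between the slides (0.57 and -0.13). The co-receptor chain Cd8a was -3.87, -4.01, -3.55 and -3.69 in sham rats and -3.64, -3.72, -3.63 and -3.62 in nephrectomized rats, with a difference of 0.13 (limma adjusted p = 0.549). Cd8b differed by 0.05, with sham values between -3.34 and -2.15. The granule protease Gzma and the granule membrane protein Nkg7, of cytotoxic T and natural killer cells, differed by -0.07 and 0.0011, with intervals of -0.29 to 0.15 and -0.27 to 0.27. Of the further lymphocyte list, 0 of 25 tested genes were called and 3 had an unadjusted p under 0.05. Its lowest p belonged to the natural killer receptor Klrk1 (difference 0.59, limma adjusted p = 0.0727), its relative Klrd1 (-0.32, adjusted p = 0.114) and the protease Gzmk (-0.36, adjusted p = 0.183). Klrk1 was above background in 3 sham and 4 nephrectomized rats. It thus passed the filter only through the group where it was high, and its sham values lie near background.

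Among the chemokine genes 0 of 7 were called by limma, against 3.59% of all genes in either direction. At an unadjusted limma p of 0.05, 0 of 7 passed, against 17.7% of all genes. In 7 genes a count of 0 lies near these shares, and the counts of the other classes and lists stand beside the same shares. The median difference of the chemokine genes was -0.07. Ccl2, which attracts monocytes, had the highest value of all 32 members. It was -2.76, -1.51, -1.92 and -1.79 in sham rats and -1.59, -1.71, -0.48 and -1.35 in nephrectomized rats. Sham rat 2 lay above nephrectomized rats 1 and 2, and nephrectomized rat 3 lay well above the rest. The level was 1.64-fold that of sham (95% interval 0.977 to 2.76, limma adjusted p = 0.305, and 0.246 with slide as a block). The log2 difference was 0.49 on slide 1 and 0.94 on slide 2. It was 0.46 without sham rat 1 and 0.45 without nephrectomized rat 3.

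Cxcl1, which attracts neutrophils, turned on 1 rat. It was -4.15, -1.98, -3.96 and -3.67 in sham rats and -3.75, -3.93, -3.23 and -3.40 in nephrectomized rats. Sham rat 2 was the highest of all, and the other 3 sham rats lay in or below the nephrectomized range. The difference was -0.14 (95% interval -1.15 to 0.87, limma adjusted p = 0.908), with -0.78 on slide 1 and 0.50 on slide 2, and it was 0.35 without sham rat 2. Cxcl1 and Ccl3 belong to families of close relatives, whose mRNA their probes may also bind.

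None of the remaining ligands passed. Ccl5, which attracts T cells and monocytes, was 1.26, 0.88, 1.31 and 1.14 in sham rats and 1.05, 1.07, 0.94 and 0.89 in nephrectomized rats. Within slide 2 both nephrectomized rats lay below both sham rats, and on slide 1 they did not. The difference was -0.16 (95% interval -0.39 to 0.07, limma adjusted p = 0.467). The macrophage inflammatory protein Ccl3 differed by -0.04 (95% interval -0.35 to 0.27). Cxcl12, the ligand of Cxcr4, differed by -0.07 and its other probe by -0.05.

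Cx3cl1, the membrane-bound fractalkine, was 5.65, 5.55, 5.64 and 5.73 in sham rats and 5.64, 5.48, 5.58 and 5.39 in nephrectomized rats. The difference was -0.12 (95% interval -0.29 to 0.05, limma adjusted p = 0.459), and its other probe gave -0.11. Its receptor Cx3cr1, carried by kidney macrophages, was -3.31, -3.36, -2.98 and -2.52 in sham rats and -2.66, -2.91, -2.50 and -2.92 in nephrectomized rats. Sham rats 1 and 2 were the low ones, and the difference was 0.55 on slide 1 and 0.04 on slide 2. Pooled, it was 0.29 (95% interval -0.14 to 0.73, limma adjusted p = 0.474), with 0.19 without sham rat 2 and 0.47 without sham rat 4.

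**Figure D4:**
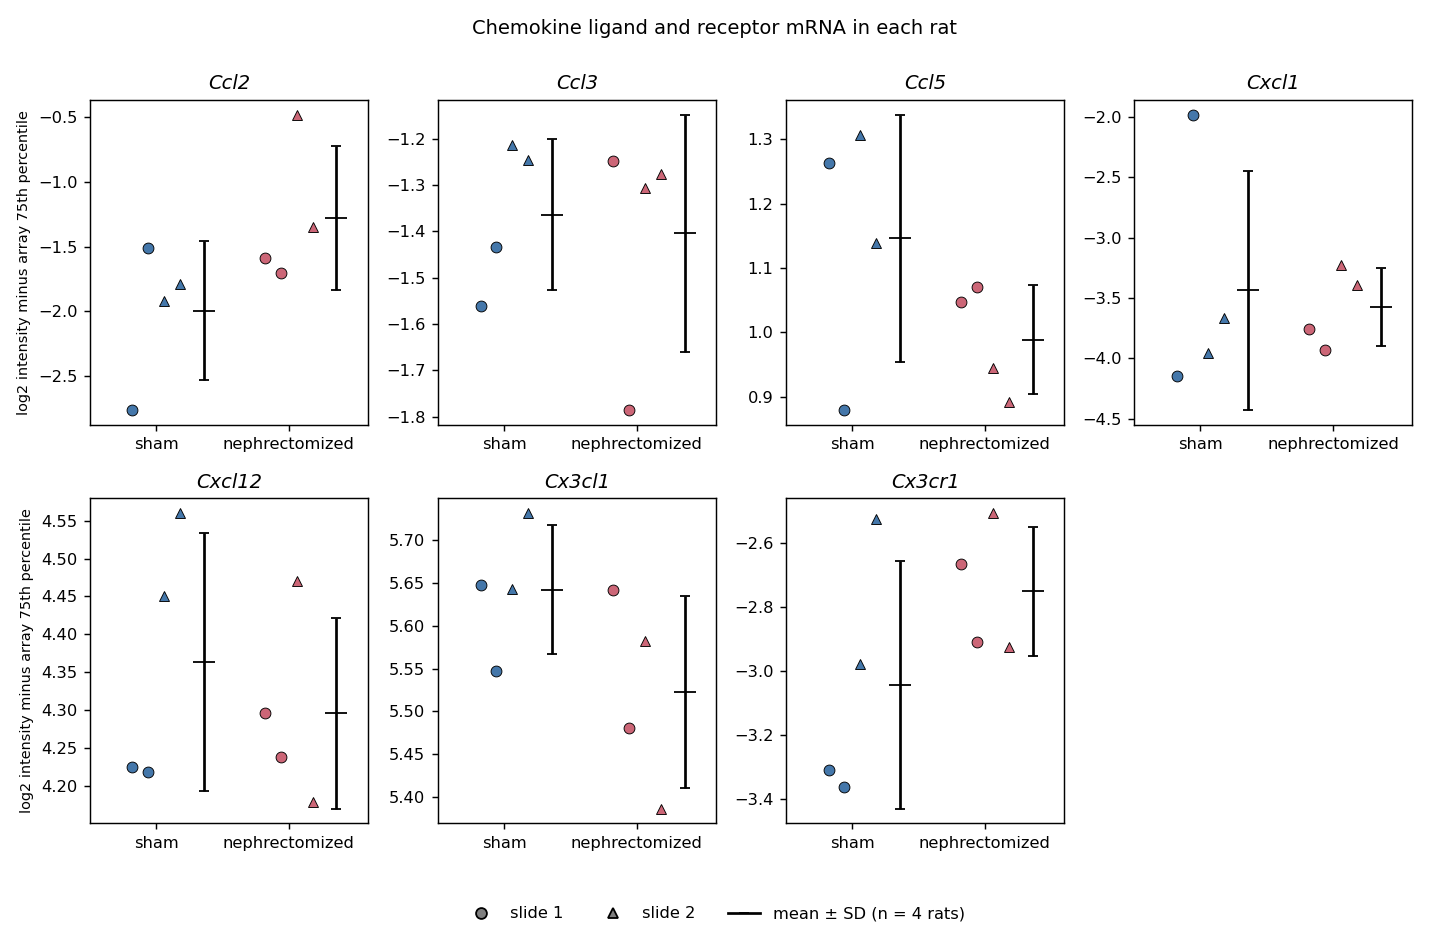
Level on the vertical axis (log2 intensity less the 75th percentile of the array) of the 7 chemokine system members in each of 4 sham and 4 nephrectomized rats, with circles for slide 1, triangles for slide 2 and bars for mean ± SD. The groups overlap in each panel; nephrectomized rat 3 is the highest in Ccl2 and sham rat 2 in Cxcl1.

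A further list holds the other chemokine ligands. Of 16 tested, 0 were called, 3 had an unadjusted p under 0.05 and the median difference was 0.0099. Ccl20, a ligand of Ccr6, was -2.32, -2.21, -2.16 and -2.28 in sham rats and -1.88, -2.06, -1.65 and -1.58 in nephrectomized rats. The groups did not overlap, and the difference of 0.45 reached a limma adjusted p of 0.0669, or 0.037 with slide as a block. The interferon-induced ligand Cxcl9 was -2.96, -2.85, -2.72 and -2.81 in sham rats and -3.35, -4.18, -3.21 and -4.12 in nephrectomized rats. Its groups did not overlap either (difference -0.88, limma adjusted p = 0.0745), and the same held for Cxcl14 (-0.67, adjusted p = 0.125). Cxcl9 was above background in 4 sham and 3 nephrectomized rats. It thus passed the filter only through the group where it was high, and its low values lie near background. With array weights in limma both were called (adjusted p = 0.00645 and 0.0382), as was Ccl20 (0.036). That setting also called many more of all genes than the main fit, in both directions (counts given below). Leaving out nephrectomized rat 3 called Cxcl9 (limma adjusted p = 0.0382) and leaving out nephrectomized rat 2 called Ccl20 (0.0308). With normexp the differences of Cxcl9 and Cxcl14 were -0.36 and -0.31, and neither was called.

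Chemokine receptors were mostly undetected, with 10 of 19 matched genes above background in no rat and 0 of 5 tested genes called (2 at an unadjusted p under 0.05). Cxcr4, the receptor of Cxcl12, was -3.28, -3.48, -3.13 and -3.49 in sham rats and -4.17, -4.32, -3.82 and -3.58 in nephrectomized rats. The groups did not overlap, and the difference was -0.63 (limma adjusted p = 0.087), or -0.16 with normexp (adjusted p = 0.367). The decoy-like receptor Ccrl2 differed by 0.35 (adjusted p = 0.0993) and Ccr10 by 0.15 (adjusted p = 0.304). Of 14 tested adhesion molecule and cytokine genes, 0 were called, 3 had an unadjusted p under 0.05 and the median difference was 0.0061. The lowest p there belonged to Nfkbia, the inhibitor of NF-kappaB (difference -0.43, limma adjusted p = 0.147), and to the endothelial adhesion molecule Pecam1 (-0.33, adjusted p = 0.247).

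The slides were compared for all members. The log2 difference had the same sign on both slides for 17 of the 32 members, against 68.4% of all genes tested. Within both slides at once, 5 members were lower in each nephrectomized rat than in each sham rat: Adgre1, Mrc1, S100a8, S100a9 and Fcrla. Of all genes, 8.17% met this downward and 11.2% upward, and 0 members met it upward.

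**Figure D5:**
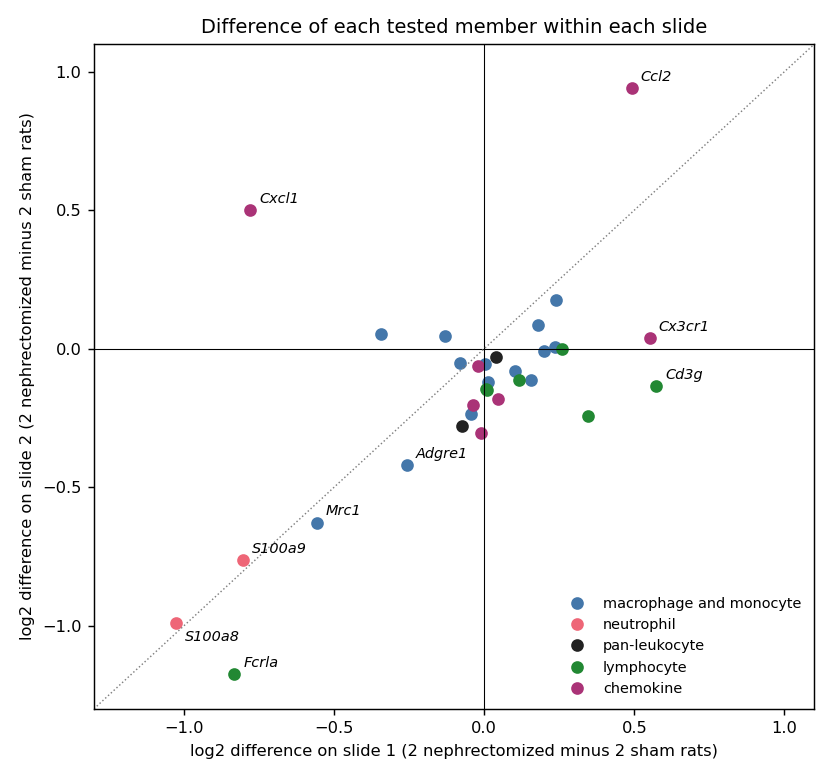
Log2 difference of each of the 32 tested members on slide 1 (horizontal axis) and slide 2 (vertical axis), each the mean of 2 nephrectomized minus 2 sham rats, coloured by class, with names where either exceeds 0.4 in size and a dotted line of equal values. Mrc1, Fcrla, S100a8 and S100a9 lie near the line in the lower left, Ccl2 lies in the upper right, and Cxcl1 has opposite signs on the slides (-0.78 and 0.50).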

How the data were processed

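Total RNA was labelled with Cy3, per the labels' protocols, and the authors extracted each array (Agilent design 014879) with Feature Extraction 10.5.1.1, per the file headers. The intensity the authors deposited had background and spatial trend removed, per the file headers. Their deposited log2 table matched log2 intensity less each array's 75th percentile after centring per probe (r = 0.9999).

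Here log2 intensities were averaged over a probe's spots without control and outlier spots, and the 75th percentile was subtracted. Probes well above background in all rats of 1 group were kept (23982 of 41012), named by RefSeq accession (GRCr8 table, 18713 probes), and the brightest probe per gene was used. limma 3.58.1 in R 4.3.3 compared the groups, two-sided and with no covariate, and p-values were adjusted over all genes by Benjamini-Hochberg. On simulated data for this comparison (19795 genes), 63 of 100 genes changed 1.5-fold and 87 of 100 changed 2-fold were called, with 14 false calls. The simulated noise was normal and drawn separately for each gene and array, with no slide effect, so the rates in the real data may differ. The number of arrays limits precision.

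Members and lists were chosen with earlier results of these data known. Values in each rat are given for called or non-overlapping members, those with the 3 lowest p of a class and those above background in 1 group alone; other lists name their called genes or 3 lowest p, of which some are not reported here. A gene named for its detection or as a contrast was chosen after its values were seen. Alternatives were other scalings, normexp, the deposited values, filters, probe rules, variance models, blocks, single slides and rats left out. Normexp used the median spot intensity.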

Additional observations from a re-analysis of the deposited data

Results flagged for a closer look

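In 8 of 134 groups of 4 rats checked, 1 rat stood apart from the other 3 by a gap over 0.829 of the group's range, and chance flags about 5% of groups (5.97% here). Among members these were sham rat 2 for Csf1r (-0.87, above the other sham rats), sham rat 1 for Ptprc (-2.32, below them), nephrectomized rat 2 for Cd8b (-2.91, below) and nephrectomized rat 2 for Ccl3 (-1.79, below). Among genes of other lists they were sham rat 4 for Np4 (-0.13, above) and for Klrk1 (-3.94, above), nephrectomized rat 3 for the tubular receptor Lrp2 (6.37, above) and sham rat 3 for the podocyte gene Nphs1 (-3.33, below values of 1.38 to 1.68 in the other sham rats). None of these rats or genes was left out of the values above.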

How the results depend on the processing

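Of the 32 tested members, 28 were called under no alternative, and no alternative called a member higher. Mrc1 and Fcrla were the 2 members called lower; that count was 4 with slide as a block (S100a8 and S100a9 added), 1 at an adjusted p of 0.01, 1 with the replicate block (S100a9 alone, with Mrc1 at adjusted p = 0.0702), 0 without the filter on dim probes, 0 within slide 1 and 0 within slide 2 (5 and 8 members at an unadjusted p under 0.05 in either direction, by limma), and 1 to 2 when single rats were left out. Over all genes, the counts called higher (511) and lower (203) became 244 and 38 without the filter, 1387 and 1128 with array weights, 0 and 0 within slide 1 (where limma gave 1632 genes an unadjusted p under 0.05), 137 and 4 within slide 2, 243 and 53 with the replicate block, 227 and 33 at an adjusted p of 0.01, and 293 and 72 with a 1.5-fold minimum. Leaving out single rats gave 279 (without sham rat 3) to 462 higher and 57 (without nephrectomized rat 4) to 214 lower. The deviations of same-numbered rats gave r = 0.10, 0.011, 0.10 and -0.018, and those of rats with other numbers ran from -0.29 to 0.27. These values cannot settle whether the numbers pair the rats. The lymphocyte median moved to -0.15 within slide 2. The macrophage, neutrophil and chemokine medians moved by less than the spread between rats, although both neutrophil differences shrank with normexp. The pan-leukocyte median was not followed. Small differences changed sign. These were Laptm5 (-0.0032 with quantile normalization, -0.047 with normexp), Ccl3 (0.026 with normexp) and C1qa (-0.020 with the mean of its probes). With array weights they were C1qa (-0.028), Cd74 (0.00060), Fcer1g (-0.044), Cd8b (-0.02) and Nkg7 (-0.013). Within slide 1 they were Cd74 (0.0028), Tyrobp (0.014), Cd3d (0.0053), Gzma (0.0098) and Cxcl12 (0.045). Within slide 2 they were Lyz2 (-0.0078), Csf1r (0.055), C1qa (-0.082), C1qb (0.047), Fcer1g (-0.11), Laptm5 (-0.028), Cd3g (-0.13), Cd8b (-0.24), Nkg7 (-0.11) and Cxcl1 (0.50). With single rats left out, the range crossed 0 for C1qa (-0.090 to 0.10), C1qb (-0.11 to 0.072), C1qc (-0.15 to 0.055), Cd74 (-0.079 to 0.031), Fcgr3a (-0.027 to 0.24), Tyrobp (-0.12 to 0.00015), Fcer1g (-0.083 to 0.076), Laptm5 (-0.044 to 0.060), Cd3g (-0.0023 to 0.39), Cd8b (-0.13 to 0.26), Gzma (-0.13 to 0.0043), Nkg7 (-0.10 to 0.080), Ccl3 (-0.11 to 0.087) and Cxcl1 (-0.38 to 0.35). The cause of these changes was not tested. Probes near background, such as those of Cd8a, Cxcl1 and Cx3cr1, are least precise.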

Other observations

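Marker genes of the other cells of the kidney were not called. None of the 13 tubule, 5 glomerular, 8 endothelial and 7 mesenchymal genes tested was called by limma (0, 0, 3 and 1 at an unadjusted p under 0.05), and the median log2 differences were -0.0056, 0.04, -0.08 and -0.0052. The tubule genes with the lowest p were Calb1, a calcium-binding protein of the distal tubule (0.21, adjusted p = 0.302), Lrp2 (-0.11, adjusted p = 0.427) and the organic anion transporter Slc22a6 (-0.25, adjusted p = 0.432). Those of the endothelium were Ehd3, of glomerular capillaries (-0.24, adjusted p = 0.193), Pecam1 (-0.33) and the vascular growth factor receptor Kdr (0.22, adjusted p = 0.265). The collagen gene Col1a1 differed by 0.29 (adjusted p = 0.273). The podocyte gene Nphs1 differed by 1.08 (adjusted p = 0.641), a value that rested on sham rat 3 and was -0.14 without it. Of 11 matched mast cell and eosinophil genes, 5 were above background in no rat and 3 could be tested: Kit (0.17), Tpsab1 (-0.05) and Prg2 (-0.10), with adjusted p of 0.525 to 0.84 by limma.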
